A study of Mus musculus with 14 samples.

Results

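The chromatin of effector cytokine genes was examined in regulatory T (Treg) cells after induced loss of Foxp3 protein. The genes were Il2, Il21, Ifng, Il4, Il5, Il13, Il17a, Il17f, Il22 and Csf2. An ATAC-seq window was taken as belonging to one of these 10 genes when the gene had the protein-coding start site nearest to the window's centre and that start site lay within 100 kb. This gave 143 of 240778 windows, or 0.0594% of the table. The farthest of them was 70798 bp from its start site, and the nearest of 28 windows left out by the distance limit was at 104512 bp. Overlapping windows share reads, and after joining them the 143 windows formed 95 separate regions. No measured difference was used to choose them.

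ATAC-seq uses the Tn5 transposase to cut open chromatin, so the read count at a window measures its accessibility. The libraries came from Treg cells of spleen and lymph nodes. In Foxp3-AID mice, Foxp3 carries a degron that the plant protein TIR1(F74G) targets for destruction when the small molecule 5-ph-IAA is given. All mice in the comparison carried Foxp3-AID and received 5-ph-IAA, for 3 or 7 days. They were either Foxp3-AID ROSA26-TIR1(F74G), here R26TIR1(F74G), with 4 mice on day 3 and 3 mice on day 7, or the controls Foxp3-AID ROSA26-WT, here R26WT, also with 4 and 3 mice. By the study's methods, TIR1(F74G) is expressed with mCherry from ROSA26 once Cre, made from the Foxp3-AID allele itself, has removed a stop cassette, and ZsGreen reports that allele. The paper's text speaks of accessibility in resting and in activated cells sorted by ZsGreen from heterozygous females, while the labels of these libraries give no age, sex, activation state or gate, so the state of the cells in each library was not settled here. Libraries held between 5653289 and 20184487 counts, and the shallowest were R26TIR1(F74G) day 3 replicate 1 and R26WT day 7 replicate 3 (6348754 counts). Because Foxp3 was removed as protein, no count in these libraries checks its loss.

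Effector cytokines are the secreted products by which conventional CD4 T cells act. Interleukin 2 drives T cell growth. Interferon gamma belongs to type 1 responses, interleukins 4, 5 and 13 to type 2 responses, interleukins 17A, 17F and 22 to type 17 responses, interleukin 21 to help for B cells, and GM-CSF (Csf2) to the activation of myeloid cells. Treg cells produce little of most of them and depend on interleukin 2 made by others, and Foxp3 is known as a repressor of several of these genes. The genes lie in clusters, with Il2 beside Il21, Il17a beside Il17f, Ifng beside Il22, and Il4, Il13 and Il5 around Rad50. Distant elements in these clusters are known to control them.

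Of 7 Treg marker genes, 5 had a window within 1 kb of a start site, and Foxp3 and Tnfrsf18 had none. Windows lay within 19 bp of the Il2ra start site and 12 bp of the Ctla4 start site, which encode the high-affinity interleukin 2 receptor chain and the inhibitory receptor CTLA-4, with mean levels of 13.0 and 15.2 CPM (counts scaled to library size, with TMM factors over the 14 libraries). The Foxp3 locus had 3 windows, and the strongest, 3531 bp downstream of the start site, ran from 6.65 to 11.6 CPM over the libraries. Of the B cell markers Ms4a1, Cd79a, Pax5, Cd22 and Ebf1, only Ebf1 had a start site window, whose level was between 0.826 and 2.16 CPM. Of 6 myeloid markers, 3 had start site windows, and these summed to between 3.24 and 5.01 CPM in every library. Csf1r, Lyz2 and Csf3r had none. Of 6 markers of natural killer and innate lymphoid cells, only Kit and Areg had start site windows, which summed to between 5.54 and 9.23 CPM. On average Kit had 2.23 CPM and Areg 5.07 CPM. The CD8 T cell markers Cd8a and Cd8b1 summed to between 11.3 and 15.5 CPM, with 1.33 CPM at Cd8a and 12.5 CPM at Cd8b1 on average. In bulk libraries, fewer cells with an open site and less opening per cell cannot be told apart.

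The cytokine genes differed first in whether the table held a window near their start sites. Only Il2, Ifng and Csf2, 3 of the 10 genes, had a window within 1 kb of a start site. Il4, Il5, Il13, Il17a, Il17f, Il21 and Il22 had none, and their nearest windows were between 6146 bp (Il21) and 17589 bp (Il17f) away. Over all 21188 protein-coding genes on the same chromosomes, 57.4% had a window within 1 kb. Of the genes of transcription factors that direct helper T cell fates, such as Tbx21, Gata3 and Bcl6, 16 of 17 had one, and only Rora did not. Of the genes of cytokine receptors the count was 9 of 17, among other cytokines 7 of 12, and among neighbours in the same clusters 8 of 12, including Rad50, Irf1 and Mdm1.

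The promoters of the 10 cytokine genes are poor in CpG dinucleotides. In the RefSeq sequence of build GRCm38.p6, from 250 bases before to 50 bases after the start site, they held between 2 and 7 CpG, against a median of 13 over 21263 promoters of protein-coding genes, and their median GC content was 46.0%, against 56.3%. Among 6311 genes whose promoters hold no more than 7 CpG, 14.5% had a window within 1 kb of a start site, while among 11181 genes with more CpG the share was 80.8%. Most genes with promoters this poor in CpG thus had no start site window. Within the class of 0 to 3 CpG, 2 of 4 cytokine genes (Il2 and Csf2) had a window, beside 6.89% of 4136 genes. Within the class of 4 to 7 CpG, 1 of 6 (Ifng) had a window, beside 28.9% of 2175 genes. No test was made of so few genes.

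**Figure D1:**
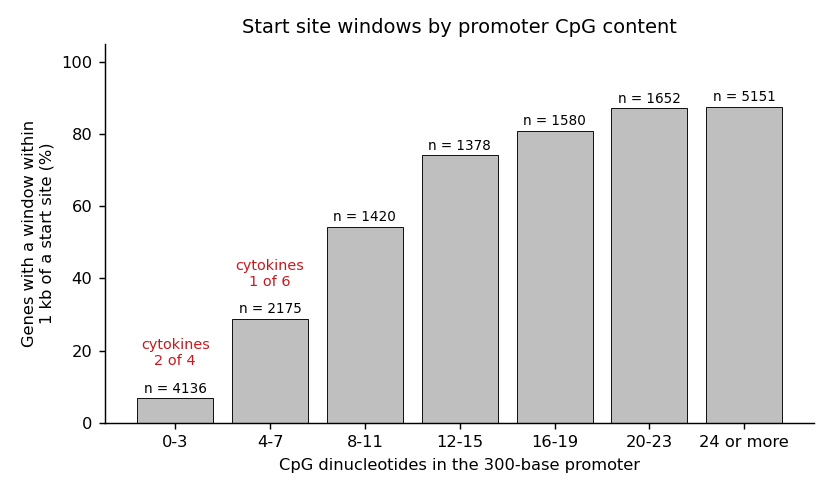
Share of protein-coding genes with an ATAC-seq window within 1 kb of a start site (vertical axis, percent), by the number of CpG dinucleotides in the promoter of 300 bases (horizontal axis), with the number of genes above each bar. The share rises from 6.89% to 87.6%, and the cytokine genes (red) fall in the first and second classes, where 2 of 4 and 1 of 6 have a window.

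The promoter sequences are shown for the 3 genes with a window within 1 kb of the start site and for Il4 and Il17a, without one. Il4 and Il17a stand for type 2 and type 17 cytokines. The Csf2 window (+541 bp) lies inside the gene and outside the printed promoter. Capitals mark GGAAA or its reverse complement TTTCC, the core bound by NFAT, the factor that T cell receptor signalling sends to the nucleus. Each runs 5′ to 3′ along the gene's own strand.
Il2, chr3:37125905-37126204, minus strand: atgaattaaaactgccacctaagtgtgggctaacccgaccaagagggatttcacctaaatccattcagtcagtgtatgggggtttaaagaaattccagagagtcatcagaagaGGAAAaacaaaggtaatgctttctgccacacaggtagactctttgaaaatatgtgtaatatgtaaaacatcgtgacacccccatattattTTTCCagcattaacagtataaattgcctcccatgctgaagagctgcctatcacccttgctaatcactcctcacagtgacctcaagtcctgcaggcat
Ifng, chr10:118440796-118441095, plus strand: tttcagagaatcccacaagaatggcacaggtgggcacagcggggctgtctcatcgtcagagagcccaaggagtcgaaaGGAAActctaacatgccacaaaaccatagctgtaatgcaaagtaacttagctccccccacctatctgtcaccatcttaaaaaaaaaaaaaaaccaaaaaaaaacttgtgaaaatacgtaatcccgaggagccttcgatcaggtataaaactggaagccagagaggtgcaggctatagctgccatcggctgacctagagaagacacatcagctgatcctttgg
Csf2, chr11:54249850-54250149, minus strand: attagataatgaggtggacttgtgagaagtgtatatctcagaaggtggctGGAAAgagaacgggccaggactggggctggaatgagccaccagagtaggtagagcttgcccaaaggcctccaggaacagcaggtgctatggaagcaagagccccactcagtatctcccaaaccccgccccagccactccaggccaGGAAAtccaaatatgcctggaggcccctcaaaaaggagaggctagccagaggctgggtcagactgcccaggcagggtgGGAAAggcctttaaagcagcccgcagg
Il4, chr11:53618616-53618915, minus strand: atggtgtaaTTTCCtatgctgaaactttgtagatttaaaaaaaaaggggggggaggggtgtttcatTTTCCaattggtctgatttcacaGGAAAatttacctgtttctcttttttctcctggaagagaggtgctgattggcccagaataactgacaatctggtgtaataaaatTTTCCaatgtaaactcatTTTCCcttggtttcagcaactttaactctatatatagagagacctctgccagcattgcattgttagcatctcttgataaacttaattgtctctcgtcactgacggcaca
Il17a, chr1:20730655-20730954, plus strand: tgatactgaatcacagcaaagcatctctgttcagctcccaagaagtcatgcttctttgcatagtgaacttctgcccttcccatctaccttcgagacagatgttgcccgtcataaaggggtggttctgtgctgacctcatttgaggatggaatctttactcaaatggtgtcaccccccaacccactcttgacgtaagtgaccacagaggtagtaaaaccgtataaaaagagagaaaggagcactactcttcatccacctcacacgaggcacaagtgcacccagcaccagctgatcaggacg

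The NFAT core was present in 9 of the 10 cytokine promoters, with 2 copies in Il2, 1 in Ifng, 3 in Csf2 and 5 in Il4, and 59.9% of all promoters held it. Il17a was the exception with 0 copies. TATAAA, the TATA box, was present in 6 of 10, against 12.6% of all promoters. Other words, searched on both strands, were scarcer. TGANTCA, bound by AP-1, was in 1 of 10 (Il17a) against 6.99%, and TTCNNNGAA, bound by STAT factors, was in 1 of 10 (Ifng) against 7.69%. AGATAA, bound by GATA factors, was in 3 of 10 against 9.65%, and GTAAACA, bound by forkhead factors such as Foxp3, was in 0 of 10 against 3.01%. These are matches of letters in a short stretch. Il4, with 5 copies of the NFAT core, had no window at its start site, and Ifng, with 1, had a window.

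The windows nearest to these start sites were weak. A start site window here is the nearest one within 1 kb, and it need not cover the start site, as at Il2 and Csf2. The window at Il2 (+130 bp, inside the gene) averaged 1.86 CPM, that at Csf2 (+541 bp, inside the gene) 1.49 CPM, and that at Ifng (-34 bp) 0.890 CPM, which was above only 10.7% of all windows. The start sites of the factors that induce these genes included weak ones, with Tbx21 at 2.70 CPM and Stat4 at 2.56 CPM, and strong ones, with Gata3 at 20.3 CPM and Stat3 at 30.7 CPM. All windows have the same length, so that CPM can be compared between them. The accessibility of the cytokine loci lay mostly outside genes. Of the 143 windows, 135 were outside any protein-coding gene and 8 inside the cytokine gene itself (5 of Il21 and 1 each of Ifng, Il2 and Csf2), so that 5.59% were inside a gene, against 57.3% of all windows. Of the 143, 6.99% lay within 1 kb of a start site, against 22.3% of all windows. Their median level was 1.32 CPM, against 1.80 CPM over the table.

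**Figure D2:**
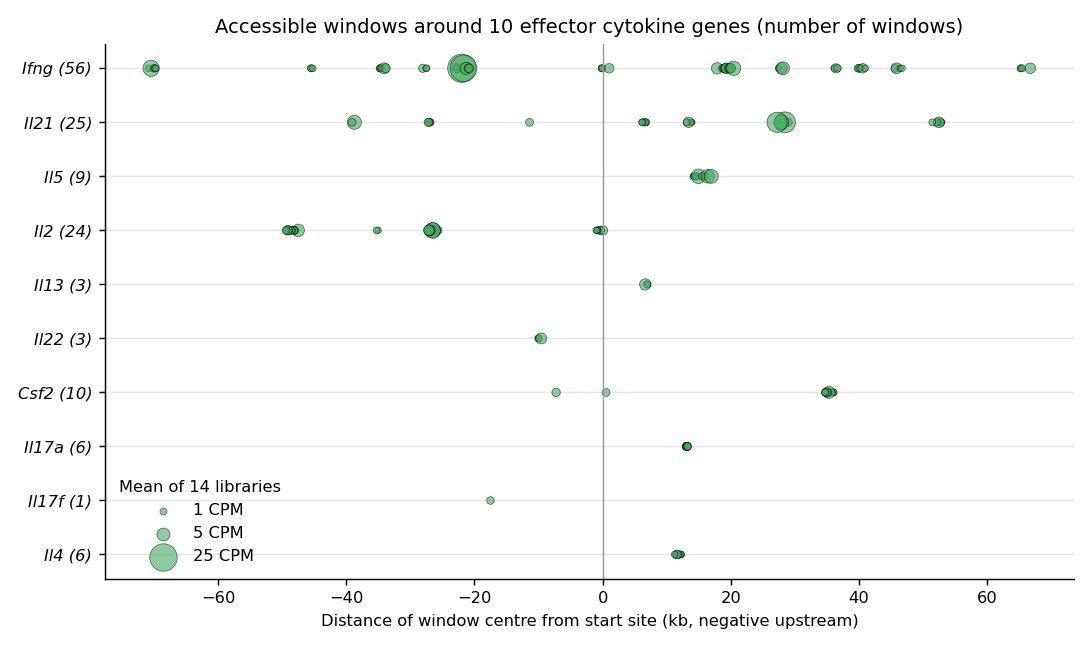
Position of each of the 143 windows relative to the start site of its gene (horizontal axis, kb, negative upstream), with a row for each gene, the number of its windows in brackets and circle area growing with the mean CPM of 14 libraries. The largest circles lie 22.0 kb upstream of Ifng and 28.5 kb downstream of the Il21 start site. The table held no window at the start sites of Il21, Il5, Il13, Il22, Il17a, Il17f and Il4.

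The strongest window of the 10 loci was upstream of Ifng, beside a separate window that did not overlap it. It lay 22.0 kb upstream (chr10:118418981-118419182) and averaged 26.5 CPM, above 97.7% of all windows. It is at the distance of a conserved element known to bind T-bet and to enhance Ifng transcription. Its level ranged from 23.8 to 30.2 CPM on day 3 in R26WT and from 23.6 to 28.8 CPM in R26TIR1(F74G), and on day 7 from 24.6 to 30.8 CPM and from 25.4 to 26.7 CPM. The groups overlapped on both days, and the log2 fold change of R26TIR1(F74G) over R26WT, with the day included in the fit, was -0.08 ± 0.09 (SE, adjusted p = 0.916). The Ifng locus had 56 windows in 38 regions, spread from -70.8 kb (upstream) to 66.7 kb downstream, more than any other of the 10 genes. Il22, 3 windows about 10 kb upstream of its own start site, had its highest level at -9.5 kb, with a mean of 3.38 CPM.

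Il21 and Il2 lie side by side. Between the start sites of these neighbours, the highest window was 28.5 kb downstream of the Il21 start site (chr3:37204083-37204284), with a mean of 14.1 CPM and a range of 11.2 to 19.2 CPM over the 14 libraries, and its log2 fold change was -0.04 ± 0.10 (adjusted p = 0.977). The highest window assigned to Il2 was 26.5 kb upstream (chr3:37152374-37152575), with a mean of 7.53 CPM and a log2 fold change of 0.28 ± 0.13 (adjusted p = 0.709). Of the 24 Il2 windows, 23 were upstream and 1 downstream of the start site. Il21 had 25 windows, of which 5 were inside the gene.

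The windows of the type 2 genes all lay downstream of the start site of the gene they were assigned to. The window nearest to the Il4 start site, 8998 bp upstream of it, was the Il13 window at +7.0 kb. The window nearest to the Il5 start site, at 12899 bp, was assigned to a neighbouring gene. All 9 windows of Il5 lay between 14.2 and 17.0 kb downstream of the start site, and the highest averaged 6.48 CPM. The 3 windows of Il13 lay between 6.6 and 7.0 kb downstream, with up to 3.69 CPM, and the 6 windows of Il4 between 11.2 and 12.3 kb downstream, with up to 1.85 CPM. Rad50, whose gene houses the locus control region of this cluster, had its highest window 26 bp upstream of its own start site at 17.3 CPM, with a log2 fold change of -0.10 ± 0.10 (adjusted p = 0.907). The Csf2 locus had 10 windows in 6 regions, and the highest, 35.3 kb downstream, averaged 4.28 CPM.

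Il17a and Il17f had 1 open region each, the fewest of the 10 loci. Il17f had 1 window, at -17.6 kb, with 1.32 CPM. The 6 windows of Il17a all overlapped in 1 region about 13 kb downstream of the start site, outside any protein-coding gene, and averaged between 1.11 and 1.66 CPM each.

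The mean CPM per window ordered the loci as Ifng (2.78 ± 0.14, SD over 14 libraries), Il21 (2.71 ± 0.16), Il5 (2.61 ± 0.24), Il2 (2.33 ± 0.28), Il13 (1.87 ± 0.41), Il22 (1.82 ± 0.51), Csf2 (1.68 ± 0.24), Il17a (1.47 ± 0.81), Il17f (1.32 ± 0.34) and Il4 (1.22 ± 0.30). Each locus overlapped the next in this order by its mean and SD over libraries. Compared within libraries, the count above the next locus ran from 5 of 14 (Il17a over Il17f) to 11 of 14. The highest count was that of Il5 over Il2 and of Il2 over Il13. Of the Ifng levels, 10 of 14 were above the Il21 level of the same library, and of the Il13 levels 7 of 14 were above those of Il22. Keeping only non-overlapping windows left Ifng, Il21 and Il5 first and Il17a, Il17f and Il4 last, with Il2 moving from place 4 to place 6. Il17a varied most between libraries, from 0.475 to 3.48 CPM, for a mean near that of Il17f.

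**Figure D3:**
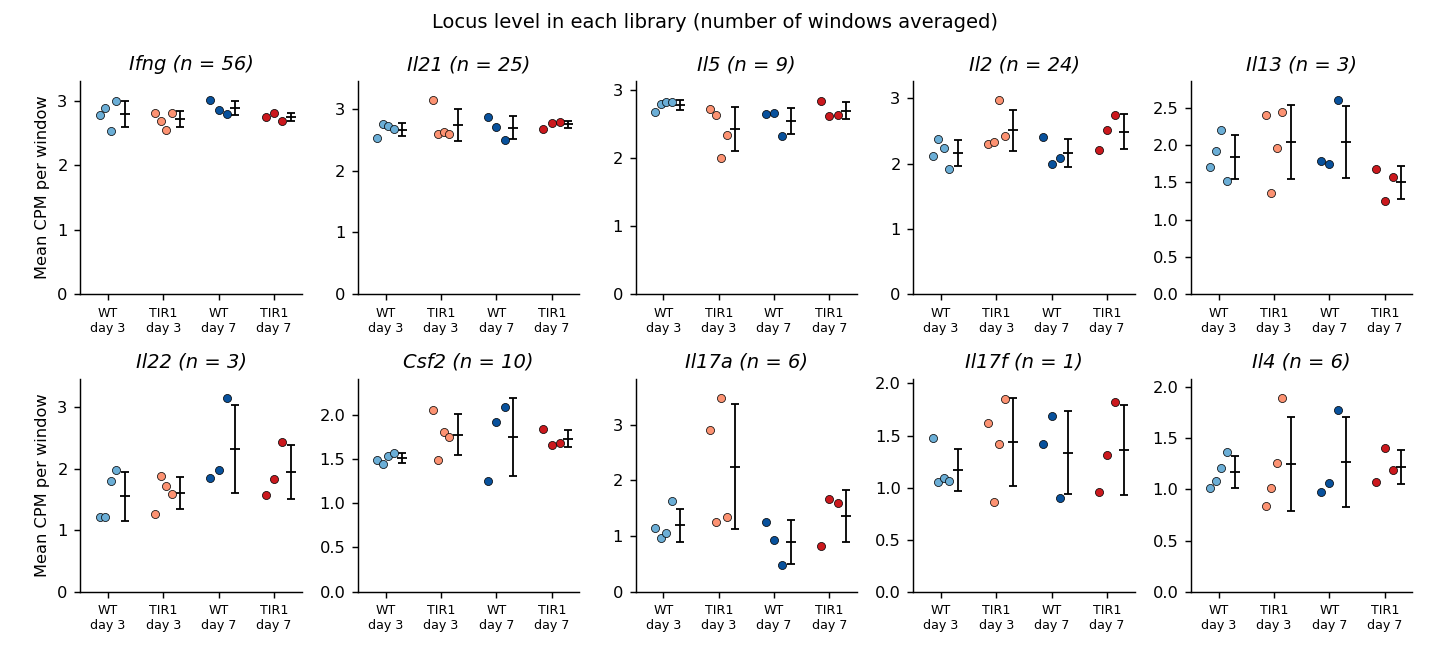
Mean CPM per window of each locus (vertical axes, each starting at 0) in the 14 libraries, by genotype and day (horizontal axis), with the number of windows averaged in brackets. Points are libraries and bars are mean ± SD of a group. The groups overlap at most loci, and at Il17a 2 of the 4 R26TIR1(F74G) day 3 libraries stand above all others.

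After the group means were removed, the loci varied largely apart. Over the 45 pairs of loci the median Pearson correlation of log2 levels over 14 libraries was -0.01, with a range of -0.60 to 0.58. The pattern most like that of Il17a was that of Il21 (r = 0.57, 14 libraries), and those most like each other were Il4 and Il22 (r = 0.58) and Il13 and Csf2 (r = 0.55). All points share their libraries and depths, and the levels of several loci rest on few reads.

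The question asked of the genotypes was whether cytokine loci open once Foxp3 is gone. No window of the 10 loci passed an adjusted p of 0.05 in any comparison. On day 7, 0 of 140 tested windows passed (edgeR, p-values adjusted over all windows by Benjamini-Hochberg), where 11 of all 237811 tested windows passed (0.00463%), and the smallest adjusted p of the loci was 0.687. On day 3, 0 of 137 passed and 0 of all 235515 (0.0%), and the smallest adjusted p was 0.464. With the days fitted together, 0 of 143 passed, beside 27 of all 240778 (0.0112%), and the smallest adjusted p was 0.398. DESeq2 also passed 0 windows of the loci in each of these. Windows with a mean count under 10 in the compared samples, 3 on day 7 and 6 on day 3, were not tested.

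At an unadjusted p of 0.05 the loci held 8 of 140 windows on day 7 (5.71%, in 5 regions), beside 5.95% of all windows. On day 3 they held 12 of 137 (8.76%, in 8 regions), beside 7.55%, and over both days 14 of 143 (9.79%, in 10 regions), beside 6.73%. Of the 14, 10 were on the side of R26TIR1(F74G), and 5 of those 10 were the overlapping Il17a windows, which count as 1 region. Without R26TIR1(F74G) day 3 replicate 3 the counts fell to 3 for day 3 and 8 for the days together. For day 7, leaving out R26WT replicate 1 gave a count of 13, leaving out its replicate 2 gave 5, and leaving out the third R26TIR1(F74G) mouse gave 4. The median log2 fold change of the loci was 0.023 for day 7, 0.109 for day 3 and 0.054 for the days together, with medians over all windows of -0.007, 0.008 and 0.003. The day 7 median became -0.001 when R26WT replicate 1 was left out and 0.082 when R26WT replicate 2 was, and the day 3 median was 0.050 with loess offsets, 0.170 with total counts, and 0.175 without R26TIR1(F74G) replicate 2. On day 3, 64.2% of the windows were on the positive side, beside 51.2% of all windows, and on day 7 the share was 52.9%, beside 49.0%. The libraries of the genotypes did not overlap at 11 windows on day 7 (7.86%), where 11.8% of all windows did not overlap, at 9 on day 3 (6.57%), where 4.1% did not, and at 1 window over both days (0.699%), where 0.116% did not. The median SE of a window's log2 fold change was 0.34 on day 7 and 0.31 on day 3. The median mean count was 19.1 reads. At Il17a (chr1:20743899-20744100) a day 3 log2 fold change of 1.04 ± 0.31 did not pass (adjusted p = 0.464). Changes well above these errors could thus go uncalled at this depth.

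**Figure D4:**
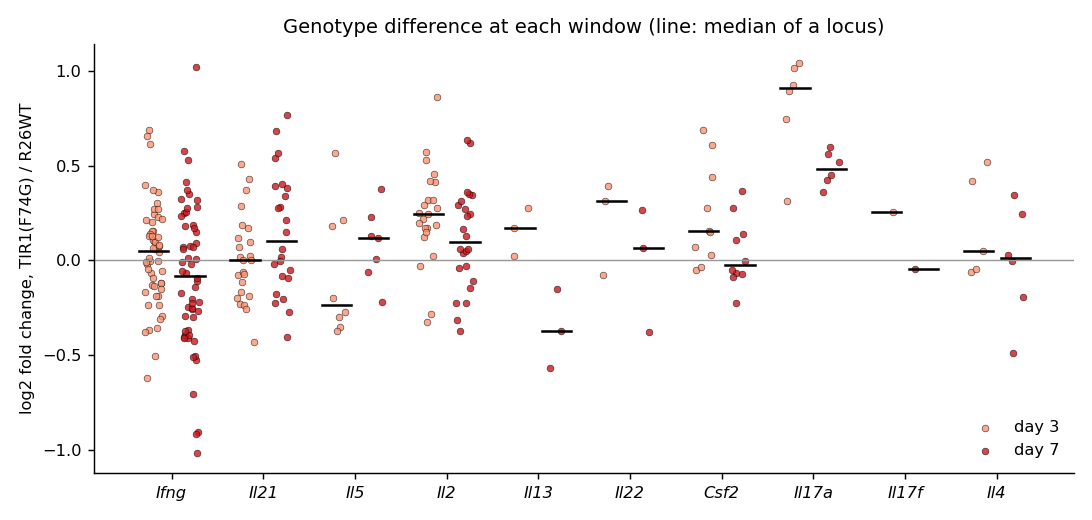
log2 fold change of R26TIR1(F74G) over R26WT (vertical axis) at each tested window of the 10 loci (horizontal axis), on day 3 (light) and day 7 (dark), with a black line at the median of each locus. The day 3 medians run from -0.23 (Il5) to 0.91 (Il17a), and no window passed the adjusted threshold.

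By locus, the largest median log2 fold change was that of Il17a, 0.91 on day 3 and 0.48 on day 7. Il22 had 0.32 and 0.07, Il2 0.25 and 0.10, Il17f 0.25 and -0.05, Il13 0.17 and -0.37, Csf2 0.15 and -0.03, Ifng 0.05 and -0.08, Il4 0.05 and 0.01, Il21 0.00 and 0.10, and Il5 -0.23 and 0.12. Il2, Il4, Il17a and Il22 thus had medians on the same side on both days, and those of Il4 were near 0. The Il22 median is that of 3 windows, and the highest of them (-9.5 kb) lay on the other side. That window had -0.08 ± 0.22 on day 3 and -0.38 ± 0.22 on day 7. The mean Il22 level on day 7 was 2.33 CPM in R26WT and 1.94 CPM in R26TIR1(F74G).

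At Il17a, the window with the smallest p lay 13.1 kb downstream of the start site (chr1:20743899-20744100). On day 3 it measured 0.95, 0.86, 1.16 and 1.65 CPM in R26WT and 3.42, 1.34, 4.03 and 1.45 CPM in R26TIR1(F74G). On day 7 it measured 1.29, 0.99 and 0.45 CPM in R26WT and 0.86, 2.03 and 1.67 CPM in R26TIR1(F74G). The high values belonged to replicates 1 and 3 of R26TIR1(F74G) on day 3, and the genotypes overlapped on both days. The log2 fold change was 1.04 ± 0.31 on day 3 (adjusted p = 0.464), 0.60 ± 0.37 on day 7 (adjusted p = 0.881) and 0.86 ± 0.25 over both days (adjusted p = 0.398). Without R26TIR1(F74G) day 3 replicate 3 the value for day 3 was 0.64 (adjusted p = 0.879), and without replicate 1, the shallowest library, it was 0.92 (adjusted p = 0.396). With the prefix of the mouse name (AC or E) added to the fit it was 0.89 (adjusted p = 0.616). Counts at this window ran from 3 to 54 reads. The other 5 windows of the region gave between 0.33 and 0.78 over both days. Replicate 3 had the lowest summed level at the CD4 T cell marker start sites among the 14 libraries, 17.1 CPM against 19.2 to 27.3 CPM elsewhere, and the lowest at resting T cell markers, 46.7 CPM against 49.7 to 70.6 CPM, while replicate 1 had 25.9 and 67.8 CPM. Replicate 3 was also low at CD8 T cell markers (11.3 CPM), activated T cell markers (32.1 CPM) and Treg markers (43.4 CPM). Over the 14 libraries the activated sums ran from 32.1 to 42.4 CPM and the Treg sums from 42.5 to 57.2 CPM. At B cell, myeloid and natural killer markers replicate 3 lay within the range of the other libraries. The part of these levels in the Il17a values was not tested.

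At Il2, a window 26.2 kb upstream (chr3:37152018-37152219) had the smallest p of the 10 loci on day 7. It measured 2.84, 2.79 and 2.10 CPM in R26WT and 4.28, 3.93 and 4.2 CPM in R26TIR1(F74G), and all 3 R26TIR1(F74G) libraries were above all 3 R26WT libraries. The log2 fold change was 0.63 ± 0.21 (adjusted p = 0.687). On day 3 it measured 1.99, 2.91, 2.60 and 2.06 CPM in R26WT and 5.04, 2.41, 2.76 and 2.74 CPM in R26TIR1(F74G), where 1 library stood apart from the other 3, which lay within the R26WT range. The day 3 log2 fold change was 0.32 ± 0.23 (adjusted p = 0.798), and without that library, the shallowest, it was 0.13 (adjusted p = 0.929). The adjacent non-overlapping window at -25.7 kb had 0.62 on day 7 and 0.44 over both days (adjusted p = 0.700).

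The Il2 start site window (+130 bp, chr3:37125724-37125925) overlaps the 3′ end of the printed promoter and runs into the gene. It measured 1.12, 1.98, 1.91 and 1.59 CPM in R26WT on day 3 and 3.06, 2.31, 2.91 and 1.93 CPM in R26TIR1(F74G), with an overlap between 1.93 and 1.98. On day 7 it measured 1.62, 1.74 and 1.05 CPM in R26WT and 1.28, 2.33 and 1.21 CPM in R26TIR1(F74G). The log2 fold change was 0.57 ± 0.25 on day 3 (adjusted p = 0.616) and 0.04 ± 0.32 on day 7 (adjusted p = 0.996).

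At the Ifng start site the day 7 values lay in the other direction. The window at -34 bp (chr10:118440912-118441113), which covers the TATAAA of the printed promoter, measured 1.36, 0.81 and 1.20 CPM in R26WT and 0.59, 0.48 and 0.56 CPM in R26TIR1(F74G). No library of one genotype reached the other. The log2 fold change was -1.02 ± 0.43 (adjusted p = 0.810). On day 3 the values were 1.47, 1.32, 0.96 and 0.53 CPM in R26WT and 0.36, 0.97, 0.82 and 1.05 CPM in R26TIR1(F74G), which overlapped (log2 fold change -0.29 ± 0.39, adjusted p = 0.911). The counts ran from 2 to 21 reads, and the windows at -117 and -159 bp share reads with it.

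The window of Ifng at -21.3 kb (chr10:118419626-118419827), beside the strongest window, was the 1 window of the loci at which all 7 R26TIR1(F74G) libraries were below all 7 R26WT libraries. On day 3 it measured 4.59, 5.23, 4.71 and 4.66 CPM in R26WT and 3.6, 4.18, 3.20 and 3.78 CPM in R26TIR1(F74G). On day 7 it measured 4.59, 4.94 and 4.65 CPM in R26WT and 4.38, 3.52 and 4.0 CPM in R26TIR1(F74G). The difference was small, with a log2 fold change of -0.31 ± 0.13 over both days (adjusted p = 0.649).

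Downstream of Ifng, a window at +19.8 kb (chr10:118460748-118460949) took opposite sides on the 2 days. On day 3 it measured 2.51, 4.50, 2.32 and 3.42 CPM in R26WT and 1.80, 2.25, 1.79 and 3.06 CPM in R26TIR1(F74G). On day 7 it measured 2.13, 1.86 and 1.95 CPM in R26WT and 3.69, 2.2 and 2.93 CPM in R26TIR1(F74G), without overlap. The log2 fold changes were -0.50 ± 0.24 (adjusted p = 0.639) and 0.57 ± 0.25 (adjusted p = 0.814), and the test of the difference itself gave 1.08 ± 0.35 (adjusted p = 0.663).

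At Il21, the window at -38.7 kb (chr3:37271264-37271465) measured 6.32, 6.48, 6.69 and 6.79 CPM in R26WT on day 3 and 5.22, 5.31, 4.32 and 4.75 CPM in R26TIR1(F74G), without overlap. On day 7 it measured 7.69, 4.88 and 8.25 CPM in R26WT and 6.36, 5.54 and 5.87 CPM in R26TIR1(F74G), which overlapped. The log2 fold change was -0.43 ± 0.17 on day 3 (adjusted p = 0.561) and -0.32 ± 0.12 over both days (adjusted p = 0.623).

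**Figure D5:**
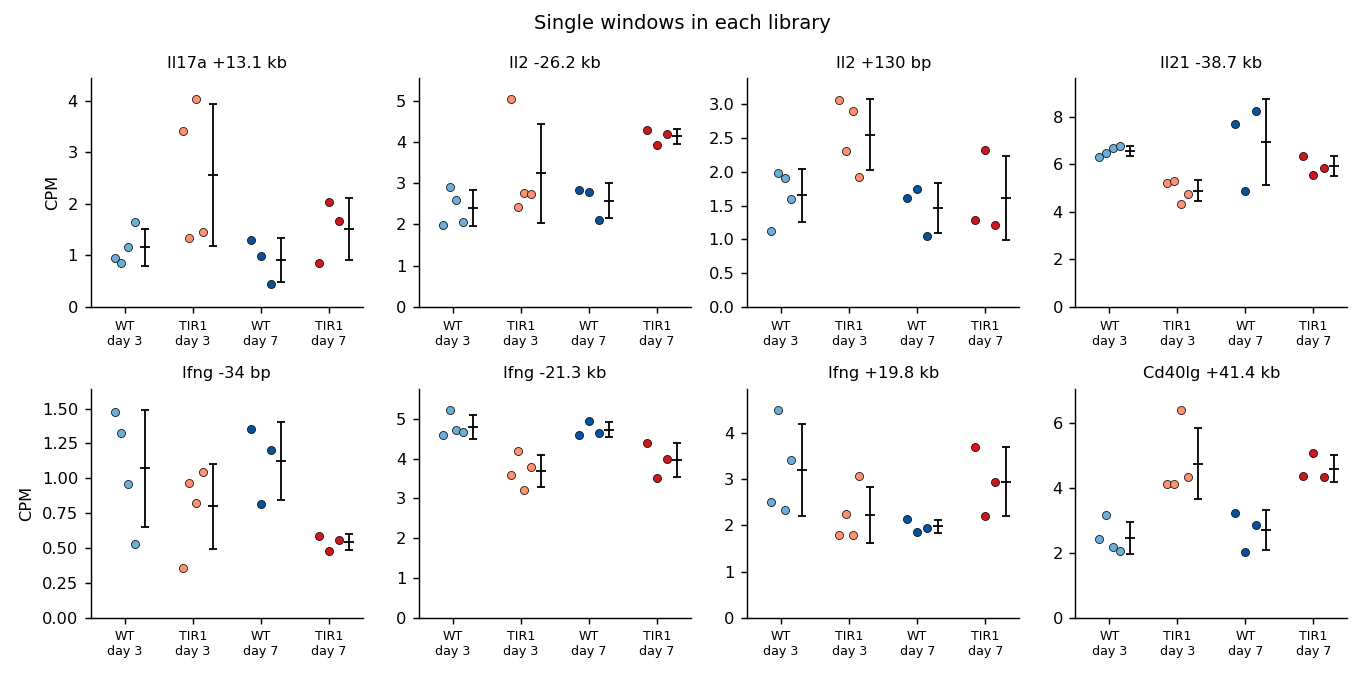
CPM in each library (vertical axes, each starting at 0) at 7 windows of the cytokine loci and 1 window of Cd40lg, by genotype and day (horizontal axis). Points are libraries and bars are mean ± SD. R26TIR1(F74G) libraries lie above all R26WT libraries at Il2 -26.2 kb and Ifng +19.8 kb on day 7 and at Cd40lg on both days. They lie below them at Ifng -21.3 kb on both days, Ifng -34 bp on day 7 and Il21 -38.7 kb on day 3.

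The highest windows of the other loci differed little with the days fitted together. Over both days the log2 fold change was -0.19 ± 0.12 at Il5 (+14.9 kb), -0.15 ± 0.16 at Il13 (+6.6 kb), -0.02 ± 0.21 at Il4 (+11.6 kb), -0.22 ± 0.16 at Il22 (-9.5 kb), 0.11 ± 0.23 at Il17f (-17.6 kb) and 0.13 ± 0.14 at Csf2 (+35.3 kb), and the Csf2 start site window gave -0.06 ± 0.21. The smallest adjusted p among these was 0.811. By day, the Il5 window had -0.30 ± 0.16 on day 3 (adjusted p = 0.690) and -0.06 ± 0.17 on day 7. All its R26TIR1(F74G) libraries on day 3 were below all R26WT libraries. The Il13 window had 0.03 ± 0.21 on day 3 and -0.37 ± 0.21 on day 7 (adjusted p = 0.873). The Il22 window had -0.08 ± 0.22 and -0.38 ± 0.22 (adjusted p = 0.875 on day 7).

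The genotype difference was also compared between the days, and the days with each other. In the interaction of day and genotype, 0 of 143 windows passed and 0 of all 240778 (0.0%), and 7 of 143 (4.9%) had an unadjusted p under 0.05, beside 6.32% of all windows. Ahead of the others in the negative direction were Il2 at -35.0 kb (-1.44 ± 0.68, adjusted p = 0.784) and Ifng at -159 bp (-1.27 ± 0.54, adjusted p = 0.761), and after +19.8 kb the next positive one was its overlapping neighbour at +19.9 kb (0.71 ± 0.35, adjusted p = 0.789). Between day 7 and day 3, with genotype as a term, 0 of 143 windows passed, beside 8 of all windows (0.00332%), 7 of 143 had an unadjusted p under 0.05 (4.9%, beside 5.47%), and the days overlapped at all 143, while 0.0939% of all windows did not overlap. The windows with the smallest p were Il21 at +51.4 kb (-0.78 ± 0.33, adjusted p = 0.881) and Il17a at +13.1 kb (-0.58 ± 0.25, adjusted p = 0.881), and on the positive side Ifng at +27.9 kb (0.30 ± 0.14, adjusted p = 0.901) and Il2 at -26.2 kb (0.33 ± 0.16, adjusted p = 0.909). DESeq2 passed 0 windows of the loci in the interaction and between days. Leaving out 1 library moved the 7 windows of the interaction to between 2 (R26WT day 7 replicate 1 or R26TIR1(F74G) day 7 replicate 1) and 9 (R26TIR1(F74G) day 7 replicate 2), and the 7 between days to between 4 (R26WT day 7 replicate 3 or R26TIR1(F74G) day 3 replicate 3) and 14 (R26TIR1(F74G) day 3 replicate 4). Collection dates are not given in the labels, and their part in the day comparison was not tested.

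Genes that receive or direct these cytokines were counted in the same fits. Over both days, 0 of 320 windows of cytokine receptor genes, 0 of 651 windows of lineage factor genes and 0 of 204 windows of locus neighbours passed, with median log2 fold changes of -0.052, -0.027 and -0.078. The Il2ra start site window had 14.6 and 10.9 CPM on day 3 and 15.2 and 11.6 CPM on day 7 in R26WT and R26TIR1(F74G), with a log2 fold change of -0.42 (adjusted p = 0.218). Those of Tbx21 and Gata3 had 0.05 and -0.05 (adjusted p = 0.983 and 0.957).

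Among 239 windows of other cytokines, 2 passed over both days and both were assigned to Cd40lg, the gene of CD40 ligand, by which helper T cells activate B cells. The stronger call was 41368 bp downstream of the Cd40lg start site (chrX:57253411-57253612), within the body of the next gene, Arhgef6. On day 3 it measured 2.42, 3.18, 2.19 and 2.07 CPM in R26WT and 4.14, 4.13, 6.41 and 4.34 CPM in R26TIR1(F74G). On day 7 it measured 3.23, 2.04 and 2.85 CPM in R26WT and 4.39, 5.07 and 4.35 CPM in R26TIR1(F74G). All 7 R26TIR1(F74G) libraries were above all 7 R26WT libraries, with a log2 fold change of 0.88 ± 0.15 (adjusted p = 0.0114). The second, 41679 bp downstream (chrX:57253722-57253923), rose by 0.66 ± 0.13 on the log2 scale (adjusted p = 0.0462), from means of 3.79 to 5.64 CPM on day 3 and 3.73 to 6.59 CPM on day 7. The first call was lost when R26WT day 3 replicate 4, R26WT day 7 replicate 2 or R26TIR1(F74G) day 3 replicate 3 was left out, with adjusted p of up to 0.0844, and the second was past the threshold in 4 of 19 alternatives. When the fit included the mouse name prefix, adjusted p was 0.0319 and 0.102. The Cd40lg start site window itself had 0.30 (adjusted p = 0.827). On either day alone neither window passed, with adjusted p of 0.229 and 0.475 on day 3 and 0.515 and 0.387 on day 7.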

How the data were processed

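Bulk ATAC-seq libraries of Treg cells from 14 mice were grouped by genotype and day from their labels, and columns and samples were joined on the mouse's name. Per the study's methods and the labels, the authors aligned reads with Bowtie2 to mm10, called peaks with MACS2 2.2.7.1, kept and merged reproducible peaks and counted reads at their summits with featureCounts; the handling of duplicate reads is not given in the sources used here. The deposited values are raw counts per window. Whether window coordinates start from 0 or 1 is not given, so they are printed as the table names them.

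Counts were tested with edgeR 4.0.16 (quasi-likelihood test, TMM, mean count of at least 10 in the compared samples, Benjamini-Hochberg adjustment over all windows, threshold 0.05) in R 4.3.3, with SE implied by the fold change and its F statistic. DESeq2 1.42.0 and limma 3.58.1 (loess offsets) served alternatives, and summaries used Python 3.11.15. The test was checked on simulated counts. Start sites of 21900 protein-coding genes are those of RefSeq GRCm38.p6. For 17492 genes they came from the table of promoter sequences, for 3949 from the gene's coordinates with the strand taken by symbol from GENCODE, and 459 genes of unknown strand were not used here. Exons were not used here. In the locus correlations, 0.1 was added to CPM before taking log2. Libraries differed in depth, and intervals cover counting error and spread between mice without molecular identifiers.

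Windows named are, for each gene, the nearest to a start site within 1 kb and the highest; any past the threshold; and in each comparison the 2 of smallest p per direction. Other lists name windows past the threshold and the highest of Rad50. Windows named outside this rule were chosen after their values were seen: the adjacent Il2 window at -25.7 kb, and the start site windows of other genes. The genes and lists were chosen with earlier results of these data known. The study's general sort of Treg cells took ZsGreen+ CD4 T cells and required mCherry of R26TIR1(F74G) cells only, and the labels do not tie a gate to each library. Some marker genes and 1 promoter word are not reported here. Replicate numbers were checked for pairing, and same-numbered mice did not deviate together. Counts of Cd40lg alternatives include the mouse name prefix, added after seeing the data.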

Additional observations from a re-analysis of the deposited data

Results flagged for a closer look

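A library far from the other 3 of its group was found in 4 of 70 groups of 4 tested, where chance gives about 3.5. R26TIR1(F74G) day 3 replicate 1, the shallowest library, had 5.04 CPM at the Il2 window 26.2 kb upstream, where the other 3 libraries had 2.41 to 2.76 CPM, and a mean level of 3.14 CPM at the Il21 locus, where the others had 2.59 to 2.63 CPM. R26WT day 3 replicate 1 had 1.47 CPM at the Il17f window at -17.6 kb, where the others had 1.06 to 1.09 CPM, and since this is the locus's 1 window its locus level of 1.47 CPM is the same value.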

How the results depend on the processing

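The count of cytokine windows past the threshold was 0 under every alternative run: DESeq2, 3 other normalizations, no filter and a mean count of 50, adjusted p under 0.01 and 0.1, all 14 libraries in 1 fit, the mouse name prefix, assignment within 20 kb and 1 Mb, and each library left out. Dropping the filter could not change the comparisons over all 14 libraries, where every window of the table passed it. A threshold of 0.01 could not add windows to a count of 0. Under DESeq2, 1 window on day 7, 11 on day 3, 12 over both days, 2 in the interaction and 5 between days had an unadjusted p under 0.05. Same-numbered mice did not deviate together (correlations between -0.0787 and 0.0652), so they were not treated as pairs. With so few mice this check cannot exclude pairing. With the replicate block, 0 cytokine windows passed in each genotype comparison, and over all windows it passed 52 (day 7), 4 (day 3) and 14 (days combined). The block gave the Cd40lg windows 0.88 (adjusted p = 0.0202) and 0.67 (adjusted p = 0.0705). Over all windows, DESeq2 passed 0 on day 7 and 155 over both days, where edgeR passed 11 and 27, and the mouse name prefix left 0 and 15.

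The median log2 fold change of the loci between days moved from 0.014 to -0.073 with windows within 20 kb. The Il21 window at +28.5 kb was -0.04 over both days, 0.01 with loess offsets and -0.11 to 0.01 with 1 library left out. The Il4 window at +11.6 kb was -0.02, 0.02 with total counts and -0.13 to 0.12 with 1 library left out, and the Csf2 start site window was -0.06 and -0.17 to 0.00. No direction is given for these 3. Thinning overlapping windows moved the levels of Ifng and Il21 to 3.34 and 3.26 CPM. At the median mean count of 19.1 reads, the depth limits what could be detected.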
